A study of Mus musculus with 12 samples.

Results

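The cytosolic chaperonin TRiC, also called CCT, is built from 8 different but related subunits, and their 8 genes were followed here through 12 RNA-Seq libraries of mouse hippocampal neurons. The genes are Tcp1 (alpha), Cct2 (beta), Cct3 (gamma), Cct4 (delta), Cct5 (epsilon), Cct6a (zeta), Cct7 (eta) and Cct8 (theta). They were chosen by name as the members of the complex, from the 27179 genes counted in each library, with earlier results of these data known. All 8 were among the 14185 genes with enough counts to be tested.

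TRiC is a cage of a pair of stacked rings, each holding every subunit in a fixed place. Newly made proteins enter its cavity, and ATP hydrolysis closes a lid formed by the subunits themselves. Actin and tubulin depend on it to fold, which ties the complex to the cytoskeleton of axons and dendrites, and it is also known to hold back the aggregation of expanded huntingtin.

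The cultures came from mouse pups at postnatal day 0 or 1 and were kept for 17 or 18 days. The labels give the strain as C57BL/6, while the study's methods also name FVB for its hippocampal cultures. Neurons grew on Transwell inserts, cups with a porous membrane, so that somas on the upper face and neurites on the lower face were lysed apart. The proteasome inhibitor MG132 was given at 10 μM for 7 h, and control (Ctrl) neurons received its solvent, DMSO. Each of the 4 combinations of treatment and compartment had 3 libraries. No group carried a transgene or a genetic change. No source used here says how many animals went into a culture, so the p-values measure the spread between these libraries, which may be partly technical.

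Libraries held 4247610 to 22166347 reads counted on genes, and mitochondrial genes took 9.78 to 29.2% of them. A subunit had between 71 and 6827 reads in a library, so counting noise was small beside the differences described. Levels are given as CPM, a gene's reads scaled to a fixed library size, after adjustment by TMM, a method that aligns libraries on the bulk of their genes. The labelled cells were checked against markers. All 8 neuron markers were detected, with sums of 1145 to 1685 CPM in Ctrl somas and 886 to 1439 in MG132 somas. In neurites their sums were 986 to 1797 CPM in Ctrl and 873 to 1602 in MG132. Glial markers were present too, and the astrocyte and oligodendrocyte sums in neurites were above those of the neuron markers. Sums of different markers do not give shares of cells. The summed level of 8 microglia markers was 590 to 745 CPM in Ctrl somas and 165 to 287.7 in MG132 somas, and 577 to 1155 in Ctrl neurites and 96.7 to 226 in MG132 neurites. For 8 astrocyte markers the sum was 4712 to 5893 CPM in Ctrl somas and 2473 to 3248 in MG132 somas. In neurites it was 20906 to 26030 in Ctrl and 9693 to 19861 in MG132. The 8 markers of the oligodendrocyte lineage spread widely, from 1556 to 6672 CPM in Ctrl somas, 530 to 6124 in MG132 somas, 5089 to 22300 in Ctrl neurites and 2922 to 16121 in MG132 neurites. No marker was at 0 in every library of a group. In bulk RNA, fewer cells of a type and less RNA per cell cannot be told apart.

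The 8 genes lie on 8 different chromosomes. In the RefSeq annotation of GRCm38 they are Tcp1 at chr17:12916329-12925067, Cct2 at chr10:117050997-117063852, Cct3 at chr3:88297135-88321766, Cct4 at chr11:22990593-23003336, Cct5 at chr15:31590800-31601846, Cct6a at chr5:129787356-129846443, Cct7 at chr6:85451505-85468477 and Cct8 at chr16:87483325-87495869. Cct2, Cct5 and Cct8 are on the minus strand. In the GENCODE M21 annotation the exons of 4 of them overlap a gene on the other strand. For Tcp1 this covered 20.6% of the exon bases (with Acat3 and Mrpl18), for Cct6a 18.4% (with Psph), for Cct7 8.77% (with Pradc1) and for Cct8 8.01% (with Usp16). Counting was at featureCounts' defaults, which use no strand and leave uncounted the reads that also lie in exons of another gene. The counts of these 4 genes may therefore miss reads from those stretches. The exon length used below for levels per kilobase keeps the stretches, which would lower those levels. Stretches of 75 bases that also occur, on either strand, in transcripts of another gene made up 15.9% of Cct6a, 8.79% of Tcp1 and 5.09% of Cct8, and 0% of the other 5. The other gene was Psph for Cct6a and Usp16 for Cct8, the overlapping genes above, so these stretches restate that overlap. For Tcp1 the other genes were Acat2, Acat3 and Gm26130, and Acat3 is again an overlapping gene.

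Because the 8 mRNAs moved together after MG132, their start regions were searched for the heat shock element, the sequence that heat shock factors bind. RefSeq windows of GRCm38.p6 from 250 bases before to 50 after a start were given for 7 of the genes, in 9 windows. The paired unit GAANNTTC or TTCNNGAA, each of which reads the same on both strands, occurred in 3 of the 9 windows, in Cct2, Cct5 and Cct6a, and in 15.1% of 32851 promoters. The longer heat shock element of 3 such units occurred in 0 of the 9 and in 0.603% of all promoters. The CCAAT box, read on either strand as CCAAT or ATTGG, was in 4 of the 9 windows, in Tcp1, Cct3, Cct6a and Cct7, and in 37.4% of all promoters. These matches are descriptions of letters, not of binding. The 3 paired units are printed with 11 bases on each side in the direction of the gene, with the unit in capitals. They lie 24 bases after the start of Cct6a, 42 before the second start of Cct2 and 34 before the start of Cct5.
Cct6a, chr5:129787369-129787398, plus strand: gcgtaagacttTTCGAGAAgaccccgcaga
Cct2, chr10:117063399-117063428, minus strand: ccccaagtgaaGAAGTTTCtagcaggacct
Cct5, chr15:31601862-31601891, minus strand: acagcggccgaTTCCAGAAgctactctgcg
The 250 bases before the start are printed for Cct6a, the subunit with the highest fold change in neurites, and Tcp1, the subunit with the highest ratio of neurites to somas. CCAAT is in capitals.
Cct6a, chr5:129787106-129787355, plus strand: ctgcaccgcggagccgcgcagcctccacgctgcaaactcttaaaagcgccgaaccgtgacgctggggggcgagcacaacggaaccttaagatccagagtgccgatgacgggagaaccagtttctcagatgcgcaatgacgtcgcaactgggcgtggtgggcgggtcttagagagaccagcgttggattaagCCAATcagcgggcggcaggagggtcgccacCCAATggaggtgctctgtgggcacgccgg
Tcp1, chr17:12916079-12916328, plus strand: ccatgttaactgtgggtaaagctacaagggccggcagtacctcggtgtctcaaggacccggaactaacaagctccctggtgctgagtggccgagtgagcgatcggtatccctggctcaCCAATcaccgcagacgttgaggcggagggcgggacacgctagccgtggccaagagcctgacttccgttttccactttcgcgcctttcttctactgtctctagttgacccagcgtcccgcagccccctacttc

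MG132 somas held about 1.77 to 2.41 times the TRiC mRNA of Ctrl somas, gene by gene. The difference passed the test for 6 of the 8 subunits, Cct2, Cct5, Cct6a, Cct7, Cct8 and Tcp1, at an adjusted p under 0.01 (edgeR, quasi-likelihood F test, Benjamini-Hochberg over all tested genes). By that rule 9.52% of the 14185 genes were higher. For all 8 subunits, Cct3 and Cct4 included, the 3 MG132 libraries lay above the 3 Ctrl libraries, which was so for 23.2% of all genes. The median log2 fold change of the 8 was 1.03, against -0.07 for all tested genes.

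The beta, delta and epsilon subunits are among those that bind ATP most readily in the ring. Cct2 (beta) stood at 51.0, 60.5 and 63.5 CPM in Ctrl somas and at 128, 145 and 148 CPM in MG132 somas, and had the largest soma fold change of the 8, log2 1.27 (SE 0.17, edgeR adjusted p = 9.22e-05). Cct5 (epsilon), whose mutation causes a hereditary sensory neuropathy in people, had 65.3, 65.98 and 58.7 CPM in Ctrl and 126, 163 and 157 CPM in MG132, a log2 fold change of 1.23 (SE 0.17, edgeR adjusted p = 0.000108). For both genes the lowest MG132 library was well above the highest Ctrl library. Cct4 (delta), whose mutation causes a sensory neuropathy in rats, had 56.1, 60.8 and 51.1 CPM in Ctrl and 84.5, 98.6 and 114 CPM in MG132. Its log2 fold change of 0.82 (SE 0.21) missed the threshold by little in edgeR, with an adjusted p of 0.0103. With the replicate number as a block the adjusted p was 0.000378, and in DESeq2, which called 7 of 8 and 12% of all genes, it was 0.00305. The groups did not overlap.

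The zeta, theta and gamma subunits are among those that bind ATP least. Cct6a (zeta) had 63.3, 69.6 and 75.9 CPM in Ctrl somas and 136, 169.7 and 159 CPM in MG132 somas, log2 1.15 (SE 0.15, edgeR adjusted p = 9.28e-05). Cct8 (theta) had 96.1, 93.5 and 107 CPM in Ctrl and 195, 197 and 187 CPM in MG132, log2 0.97 (SE 0.18, edgeR adjusted p = 0.00116). Both groups of Cct8 were tight, with an SD of 6.99 CPM in Ctrl and 5.12 CPM in MG132. Cct3 (gamma) was the steadiest in Ctrl somas, at 60.8, 62.0 and 61.6 CPM, but spread in MG132 somas over 88.3, 139 and 139 CPM. The low library was MG132 replicate 1. The log2 fold change of Cct3, 0.99 (SE 0.32), did not pass in edgeR (adjusted p = 0.0308) or DESeq2 (adjusted p = 0.0191), and passed with the replicate block (0.94, adjusted p = 0.000933).

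Cct7 (eta) had 53.7, 55.7 and 48.2 CPM in Ctrl somas and 109, 97.4 and 124 CPM in MG132 somas, log2 1.07 (SE 0.16, edgeR adjusted p = 0.000219). Tcp1 (alpha), the subunit that gave the complex its name, had 64.8, 58.7 and 59.5 CPM in Ctrl and 107, 93.4 and 124 CPM in MG132, log2 0.83 (SE 0.19, edgeR adjusted p = 0.00538). The call for Tcp1 was the least stable of the 6. It was lost in 5 of the 6 fits that left out a library, with log2 fold changes of 0.72 without MG132 somas replicate 3 to 0.88 without Ctrl somas replicate 1 and adjusted p-values of 0.0274 and 0.0129, and was kept without MG132 somas replicate 2 (0.93, adjusted p = 0.00653). With the block, 8 of 8 subunits were higher in somas, and 14.1% of all genes. When libraries were scaled by their total counts in place of TMM, the fold changes were similar, with a median of 0.998, but 1 of 8 passed (Cct2), and 3.47% of all genes.

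**Figure D1:**
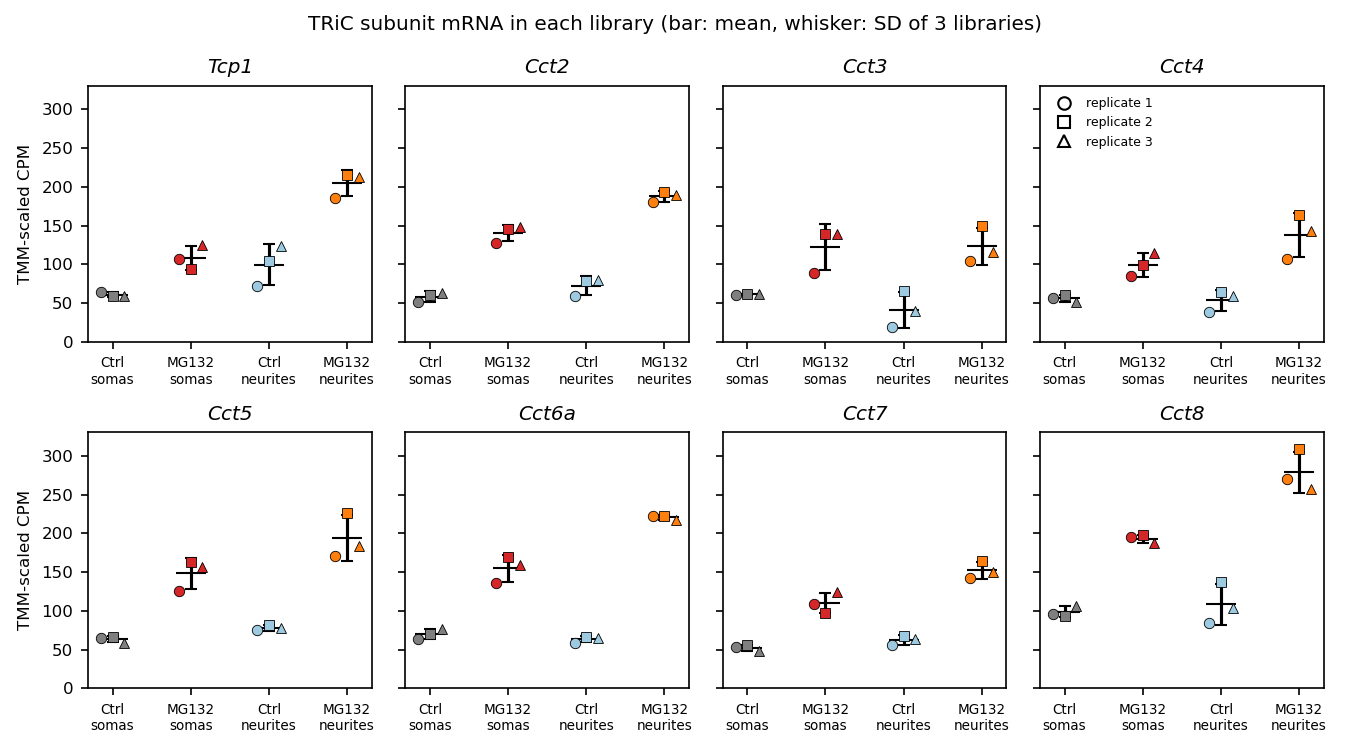
Level of each TRiC subunit in each of the 12 libraries, in TMM-scaled CPM on a linear axis from 0. Symbols mark the replicate number, the bar is the mean and the whisker the SD of 3 libraries. In both compartments every MG132 point lies above every Ctrl point of the same gene, and the spread relative to the mean is widest for Cct3 in Ctrl neurites, 18.8 to 65.5 CPM.

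In neurites all 8 subunits rose, by 2.06-fold (Tcp1) to 3.49-fold (Cct6a). By the same rule 9.76% of all tested genes were higher in MG132 neurites. The 3 MG132 libraries lay above the 3 Ctrl libraries for 8 of 8 subunits and for 20.4% of all genes. The median log2 fold change of the 8 was 1.36, against -0.16 for all genes. Because the groups did not overlap, each subunit was necessarily higher in MG132 in 3 of 3 same-numbered pairs of libraries, as in somas.

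Cct6a (zeta) rose most. It had 58.7, 66.3 and 64.6 CPM in Ctrl neurites and 223, 222 and 217 CPM in MG132 neurites, a log2 fold change of 1.80 (SE 0.15, edgeR adjusted p = 2.32e-06). Its MG132 libraries differed from one another by less than any other subunit's in that group, with an SD of 2.93 CPM. It was the only subunit whose log2 fold change was also above 1.7 (1 of 8 against 2.44% of all genes), and one of 2, with Cct2, that passed when libraries were scaled by total counts (2 of 8 against 3.4% of all genes).

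Cct8 (theta) had 84.1, 137 and 103 CPM in Ctrl neurites and 270.1, 309 and 257 CPM in MG132 neurites, log2 1.36 (SE 0.18, edgeR adjusted p = 7.68e-05). Cct3 (gamma) had 18.8, 65.5 and 40.0 CPM in Ctrl and 104, 149 and 116 CPM in MG132, log2 1.55 (SE 0.32, edgeR adjusted p = 0.00252). The same number stood lowest in both groups of Cct3, replicate 1, and the same number highest, replicate 2. Without Ctrl neurites replicate 1 the log2 fold change of Cct3 was 1.22 (edgeR adjusted p = 0.00456), and without Ctrl neurites replicate 2 it was 2.06 (0.000423). Without MG132 neurites replicate 2 it was 1.39 and missed the threshold, with an edgeR adjusted p of 0.0117. Fitted on the neurite libraries alone it was 1.59, with an edgeR adjusted p of 0.0112.

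Cct2 (beta) had 58.5, 78.2 and 80.2 CPM in Ctrl neurites and 179.8, 194 and 189 CPM in MG132 neurites, log2 1.37 (SE 0.17, edgeR adjusted p = 3.78e-05). Cct4 (delta) had 37.8, 63.7 and 59.0 CPM in Ctrl and 107, 163 and 143 CPM in MG132, log2 1.36 (SE 0.22, edgeR adjusted p = 0.000348). Cct5 (epsilon) had 74.6, 81.6 and 77.7 CPM in Ctrl and 171, 227 and 184 CPM in MG132, log2 1.31 (SE 0.17, edgeR adjusted p = 5.1e-05). Ctrl neurites replicate 1 was the lowest of its group for all 8 subunits. Cct7 (eta) had 55.6, 67.1 and 64.2 CPM in Ctrl neurites and 142, 164 and 150.4 CPM in MG132 neurites, log2 1.29 (SE 0.16, edgeR adjusted p = 4.3e-05). Tcp1 (alpha) had 71.4, 104 and 123 CPM in Ctrl and 186, 216 and 213 CPM in MG132, log2 1.04 (SE 0.19, edgeR adjusted p = 0.00111). Tcp1 had the lowest fold change of the 8 in neurites.

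The rise in TRiC mRNA stood beside a fall in glial markers. Of the 8 microglia markers, 4 were lower after MG132 in somas and 5 in neurites. Of the 8 astrocyte markers, 5 were lower in somas and 3 in neurites, and of the 8 oligodendrocyte lineage markers 2 were lower in each. Of the 8 neuron markers, 1 was lower, in neurites. Of all tested genes, 5.72% were lower in somas and 5.67% in neurites. The part of this shift in the TRiC values was not tested.

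Whether neurites responded more than somas was asked of the same model as a difference of the log2 fold changes. The difference was above 0 for all 8 subunits, from 0.08 (Cct5) to 0.65 (Cct6a), with a median of 0.31 against -0.04 for all genes. None passed the test: edgeR, edgeR with the replicate block and DESeq2 each called 0 of 8, and edgeR called 0% of all genes higher, or 0.0987% with the block. At an unadjusted p under 0.05 the count was 1 of 8, Cct6a, against 3.34% of all genes in that direction. For Cct6a the difference was 0.65 (SE 0.21) with an adjusted p of 0.493 in edgeR. The adjusted p was 0.126 with the block in edgeR and 0.0914 in DESeq2. Within same-numbered sets of 4 libraries it was 0.82, 0.46 and 0.68. Cct4 had a difference of 0.53 (SE 0.30), Cct3 of 0.56 (SE 0.45) and Cct8 of 0.39 (SE 0.25), positive in 3 of 3 sets for each. For Tcp1, Cct5 and Cct7 the sign was negative in set 3. On total counts Cct2 turned to -0.04, from 0.10 under TMM.

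**Figure D2:**
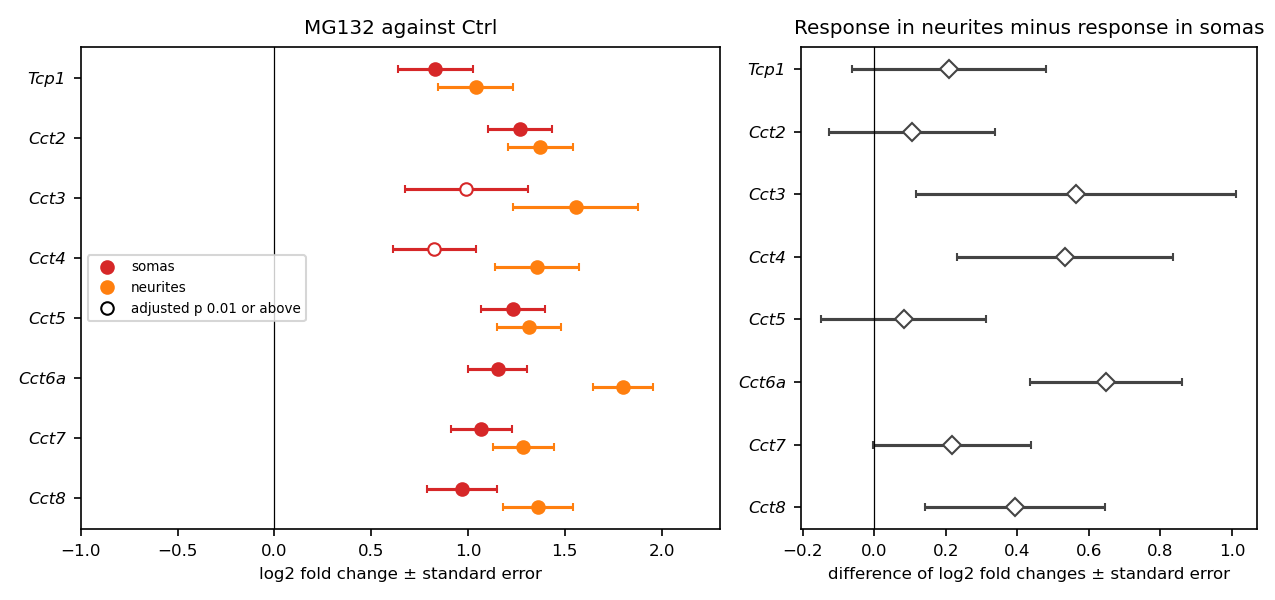
Left, log2 fold change of MG132 against Ctrl for each TRiC subunit in somas and neurites, with whiskers of 1 standard error from edgeR. Open circles mark an adjusted p of 0.01 or above, which applied to Cct3 and Cct4 in somas. Right, the response in neurites minus that in somas with its standard error, positive for all 8 and past the threshold for 0.

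Neurites were also compared with somas under each treatment. In Ctrl cultures edgeR called 0 of 8 subunits higher or lower, against 6.3% of all genes higher, and 1 of 8 had an unadjusted p under 0.05, against 15.6% of all genes higher by that rule. That gene was Tcp1, with 58.7 to 64.8 CPM in somas and 71.4 to 123 CPM in neurites, log2 0.71 (SE 0.19, edgeR adjusted p = 0.022). Its adjusted p was 0.00316 with the replicate block and 0.00575 in DESeq2, which each called 1 of 8, against 10% and 8.81% of all genes higher. Without Ctrl neurites replicate 1 the log2 ratio of Tcp1 was 0.90 and passed (edgeR adjusted p = 0.00373). Tcp1 and Cct5 were the 2 subunits whose 3 neurite libraries lay above the 3 soma libraries, as 17.8% of all genes did. The lowest log2 ratio was that of Cct3, -0.55 (SE 0.32, edgeR adjusted p = 0.293).

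After MG132, edgeR called 1 of 8 subunits higher in neurites, against 7.2% of all genes. It was again Tcp1, with 93.4 to 124 CPM in MG132 somas and 186 to 216 CPM in MG132 neurites, log2 0.92 (SE 0.19, edgeR adjusted p = 0.00401). Without MG132 somas replicate 1 or 2, or without MG132 neurites replicate 2, its adjusted p was 0.0126, 0.0232 and 0.0192. With the replicate block Cct6a joined it (0.52, adjusted p = 0.00563), against 11.1% of all genes, and DESeq2 called Tcp1, Cct6a and Cct7, against 10.2% of all genes. The groups did not overlap for 6 of 8 subunits, all but Cct3 and Cct4, against 18.9% of all genes. The log2 ratios ran from 0.01 for Cct3 to 0.92 for Tcp1. These comparisons share their libraries with those of MG132 against Ctrl.

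The direction between compartments depended on the scaling. TMM factors were 0.658 to 0.946 in Ctrl neurites and 1.18 to 1.44 in Ctrl somas, and 0.567 to 0.999 and 1.19 to 1.36 after MG132. On total counts the median log2 ratio of all genes moved from -0.04 to -0.70 in Ctrl and from -0.08 to -0.86 after MG132. The median of the 8 subunits moved from 0.19 to -0.45 and from 0.47 to -0.30, so that in both settings and both treatments it stood above the median of all genes. Tcp1 was the one subunit with a positive ratio under every scaling, at 0.07 in Ctrl and 0.13 after MG132 on total counts, where neither passed (edgeR adjusted p = 0.894 and 0.774). Of the 5 nuclear RNAs used as a check of the separation, 2 were lower in neurites under each treatment, and their summed level was 5846 to 6992 CPM in Ctrl somas and 1813 to 4002 in Ctrl neurites. Of the 8 astrocyte markers, 3 were higher and 1 lower in neurites in Ctrl, and 5 were higher and 1 lower after MG132. Of all genes, 6.3% were higher and 1.3% lower in Ctrl, and 7.2% higher and 2.16% lower after MG132. The part of this in the TRiC ratios was not tested.

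**Figure D3:**
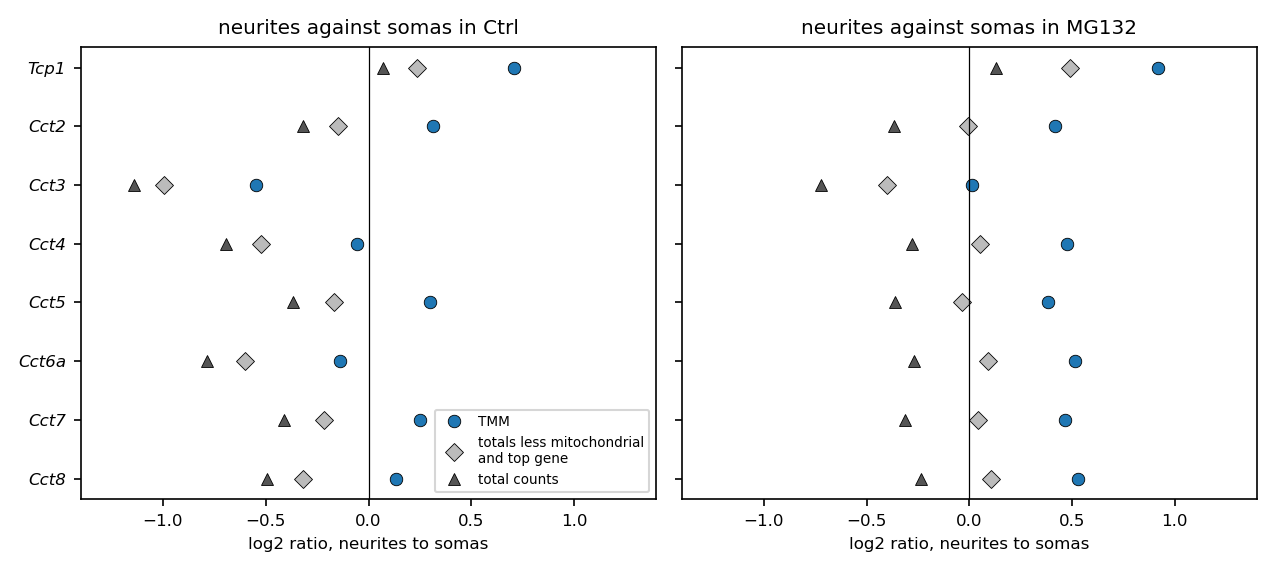
Log2 ratio of neurites to somas for each TRiC subunit, in Ctrl (left) and MG132 (right), with libraries scaled by TMM, by total counts less mitochondrial genes and the gene with the largest share, or by total counts. The points shift left together from TMM to total counts, and Tcp1 alone stays right of 0 in all 3 settings of both panels.

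Each ring of TRiC takes every subunit once, so the balance of the 8 mRNAs was described as CPM per kilobase of exon. The 8 summed to 220, 227 and 226 CPM per kilobase in Ctrl somas and 422, 484 and 501 in MG132 somas. In neurites the sums were 199, 285 and 261 in Ctrl and 595, 709.7 and 631 in MG132. Within a compartment the groups did not overlap. Levels of the single genes were close, with the highest 1.93 times the lowest in Ctrl somas and 2.48 times in Ctrl neurites. After MG132 these ratios were 2.13 and 2.15.

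Cct8 had the highest level per kilobase in each of the 4 groups, with 18.3 ± 1.27% of the sum in Ctrl somas, 17.3 ± 1.85% in MG132 somas, 18.1 ± 1.86% in Ctrl neurites and 18.0 ± 0.99% in MG132 neurites (mean ± SD, n = 3). Cct5 came next in each group, at 15.2 to 17.3%, and its shares overlapped those of Cct8 in MG132 somas, Ctrl neurites and MG132 neurites. The lowest level was that of Tcp1 in both soma groups, with 9.50 ± 0.70% and 8.10 ± 1.18%, and that of Cct3 in both neurite groups, with 7.00 ± 2.99% and 8.34 ± 0.82%. Cct7 lay next to Tcp1 in Ctrl somas, at 9.58 ± 0.74%, within the spread. Cct4 came next to the lowest in MG132 somas (8.49 ± 0.61%), Ctrl neurites (8.59 ± 0.81%) and MG132 neurites (8.53 ± 1.11%), also within the spread. These ranks hold for the union of exons as the length. The longest transcript is shorter for Tcp1 (2446 bases against 2860) and Cct3 (1977 against 2275), but not for Cct4 and Cct7. It would raise Tcp1 and Cct3 beside those genes, and the lowest ranks were not checked with it.

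In somas the shares of Cct2 went from 11.3 to 13.7% of the sum in Ctrl to 14.4 to 14.8% in MG132, and those of Cct5 from 14.002 to 16.04% to 16.1 to 18.2%. Those of Tcp1 went from 9.02 to 10.3% down to 6.75 to 8.87%. The soma groups of these 3 subunits did not overlap, though by little for Cct5 (16.04 against 16.1%), while those of the other 5 did. In neurites the share of Cct6a went from 12.03, 9.49 and 10.1% of the sum in Ctrl to 15.2, 12.8 and 14.02% in MG132, without overlap. That of Tcp1 in neurites was 12.6, 12.8 and 16.5% in Ctrl and 10.9, 10.6 and 11.8% in MG132, the opposite direction, also without overlap. Shares do not depend on how libraries are scaled, but each rises only as others fall, and no test was made of them.

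**Figure D4:**
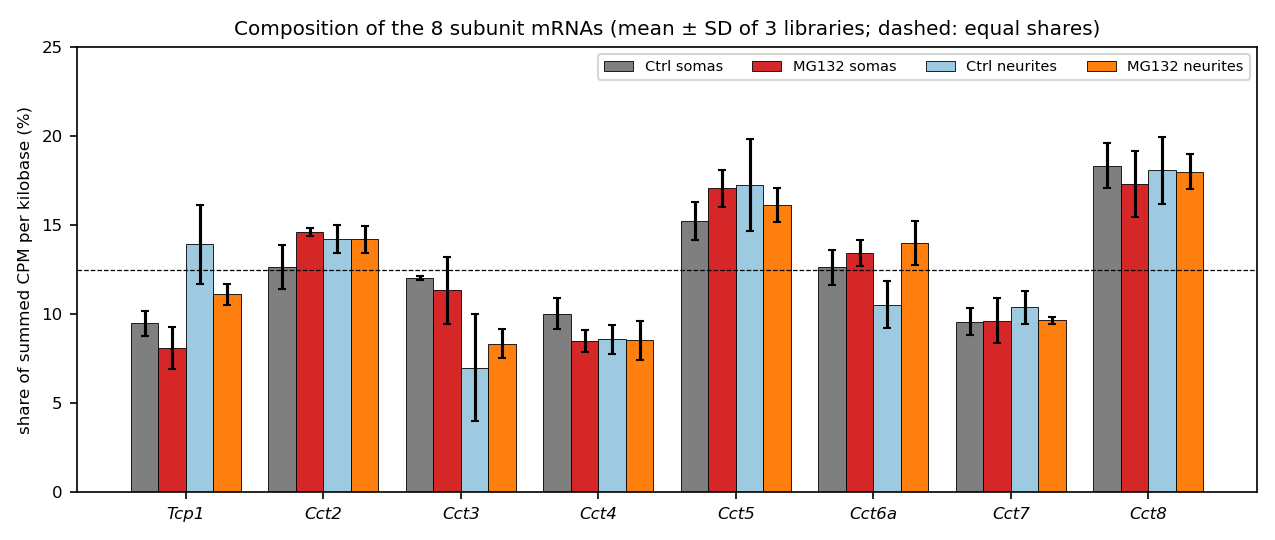
Share of each TRiC subunit in the summed level per kilobase of the 8, in percent, for the 4 groups. Bars are means and whiskers the SD of 3 libraries, and the dashed line marks equal shares. With the union of exons as the length, Cct8 and Cct5 are the largest in every group, and Cct3 is the smallest in both neurite groups. Tcp1 and Cct6a move in opposite directions with MG132 in neurites.

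The 8 profiles were alike across the 12 libraries. Pearson's r of log2 CPM ran from 0.569 to 0.978 over the 28 pairs of subunits, with a median of 0.937, and for deviations from the group means it ran from -0.0627 to 0.868 with a median of 0.592. The points share libraries, depth and treatment, and r for pairs of other genes is not given here. Against the mean profile of the 8, the highest r for a subunit was that of Cct8 (0.986) and the lowest that of Cct3 (0.859), with Tcp1 at 0.875. The mean includes each subunit itself, which raises its r. Among all tested genes Cct8 ranked 8 by this r, Tcp1 762 and Cct3 887. Genes outside the complex thus stood above every subunit, and the likeness was not particular to TRiC. Among the genes outside the complex with the profile most like the mean, over 12 libraries, were Faf1, an adaptor of the p97 segregase (0.991), Eif3c, a translation initiation factor subunit (0.990), Psmc6, an ATPase of the proteasome's regulatory particle (0.987), and Xrn2, a nuclear exoribonuclease (0.987). Their log2 fold changes ran from 0.88 (Eif3c) to 1.69 (Psmc6) in somas and from 1.05 to 2.18, for the same genes, in neurites.

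The cofactors that bring proteins to TRiC or regulate it, prefoldin and the phosducin-like proteins among them, were taken from a list. Of 11 listed, 10 were tested, and Pdcl2 had too few counts. In somas edgeR called 0 of 10, against 9.52% of all genes higher, and 4 of 10 were higher at an unadjusted p under 0.05, against 20.4% of all genes. With the replicate block 2 passed, Pdcl3 (0.83, adjusted p = 0.00464) and Txndc9 (0.73, adjusted p = 0.00931), against 14.1% of all genes. In neurites 2 of 10 rose, against 9.76% of all genes. Pfdn4, a prefoldin subunit, went from 8.47, 9.51 and 8.24 CPM to 27.8, 26.1 and 20.6 CPM, log2 1.503 (SE 0.27, edgeR adjusted p = 0.000872). Pdcl3, a phosducin-like protein that binds TRiC, went from 28.0, 38.7 and 68.6 CPM to 114, 113 and 109.9 CPM, log2 1.31 (SE 0.27, edgeR adjusted p = 0.00202). Over the 6 prefoldin subunits the log2 fold changes ran from -0.34 (Pfdn5) to 0.84 (Pfdn4) in somas and from -0.33 (Pfdn5) to 1.503 (Pfdn4) in neurites. Without Ctrl neurites replicate 2, 1 of 10 cofactors passed in neurites, and without Ctrl somas replicate 3, 1 of 10 passed in somas. The median of the list, as a log2 fold change, was 0.16 in somas. In neurites it was 0.60.

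Some cofactor mRNAs stood higher in neurites than in somas. In Ctrl, Pfdn5, Pdcl3 and Pfdn2 were higher in neurites (3 of 10, against 6.3% of all genes and 0 of 8 subunits), with log2 ratios of 1.85, 1.39 and 1.31 and edgeR adjusted p-values of 3.41e-05, 0.00247 and 0.00192. After MG132 these 3 and Pfdn1 were higher, with ratios of 1.31 to 1.87 (4 of 10, against 7.2% of all genes). In Ctrl Pfdn1 had a ratio of 1.02 and missed the threshold in edgeR (adjusted p = 0.0125), but passed with the replicate block (adjusted p = 0.00274) and in DESeq2 (adjusted p = 0.00222). The ratios of these 4 genes stayed positive on total counts, at 0.40 to 1.21 in Ctrl and 0.49 to 1.08 after MG132, but did not pass there. The difference between the lists was not tested.

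The substrates of TRiC were also taken from a list. Of 25 listed, 24 were tested, all but Tuba1b, which had 0 to 5 reads in a library. Actg1 had 5.54 to 13.2 CPM and Tuba1a 2.87 to 13.2 CPM, beside 270.3 to 1176 CPM for Actb. How far reads shared by similar actin and tubulin genes were left uncounted was not tested. The levels of these genes may therefore be too low. In somas 2 of the 24 substrates were higher and 3 lower, where 9.52% of all genes were higher and 5.72% lower. Higher were Rptor, the mTORC1 scaffold (0.91, SE 0.23, edgeR adjusted p = 0.00789), and Stat3, a transcription factor (0.83, SE 0.18, adjusted p = 0.00393). Lower were Tubb2b, a beta-tubulin (-1.58, SE 0.34, adjusted p = 0.00358), Actb, beta-actin (-1.27, SE 0.19, adjusted p = 0.000214), and Gnb2, a G protein beta subunit (-0.84, SE 0.19, adjusted p = 0.00399). In neurites, where 9.76% of all genes were higher and 5.67% lower, 1 of 24 passed in each direction. Stat3 was higher (1.04, SE 0.19, edgeR adjusted p = 0.000827) and Actb lower (-1.66, SE 0.19, adjusted p = 2.15e-05). Actb went from 861, 1116 and 1176 CPM in Ctrl neurites to 270.3, 331 and 394 CPM. The paper, by contrast, described beta-actin mRNA as unchanged by MG132, from the read distributions of its RNA-Seq. The reason for this difference was not tested. The medians of the list were -0.13 in somas and -0.19 in neurites, against -0.07 and -0.16 for all genes. With the block, 5 were lower in somas, and 3 were higher and 5 lower in neurites. Of all genes the block called 11% lower in somas, and 13.6% higher and 11.4% lower in neurites. The counts in somas hung on single libraries. The number higher was 0 without Ctrl somas replicate 1, MG132 somas replicate 2 or MG132 somas replicate 3, and 1 without any of the other 3 soma libraries. The number lower was 1 without MG132 somas replicate 1 or Ctrl somas replicate 2. In neurites 2 were higher without MG132 neurites replicate 1, and 3 were lower without MG132 neurites replicate 2.

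Other chaperonins were described beside TRiC. Of 6 listed, 5 were tested, all but Cct6b, the testis form of zeta. Hspd1 and Hspe1, the mitochondrial chaperonin and its lid, rose in both compartments (2 of 5, against 9.52% of all genes in somas and 9.76% in neurites). Hspd1 went from 66.4, 63.0 and 59.6 CPM in Ctrl somas to 379.5, 416 and 535 CPM in MG132 somas, log2 2.82 (SE 0.18, edgeR adjusted p = 2.37e-07), and by 2.57 in neurites (SE 0.18, adjusted p = 4.95e-07). Hspe1 rose by log2 2.88 in somas (SE 0.29, edgeR adjusted p = 1.33e-05) and 2.26 in neurites (SE 0.29, adjusted p = 5.16e-05). The chaperonin-like gene Bbs10, which acts in assembly of the BBSome, had 12, 26 and 15 reads in Ctrl neurites and 0, 1 and 0 reads in MG132 neurites. It was called lower there (edgeR adjusted p = 0.00129), as 1 of 5 against 5.67% of all genes. The ratio of its rates was 0.011, with an exact 95% interval of 0.000272 to 0.0638 that covers counting error only. The call rested on MG132 neurites replicate 2, the deepest library: without it 0 of 5 were called lower.

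**Figure D5:**
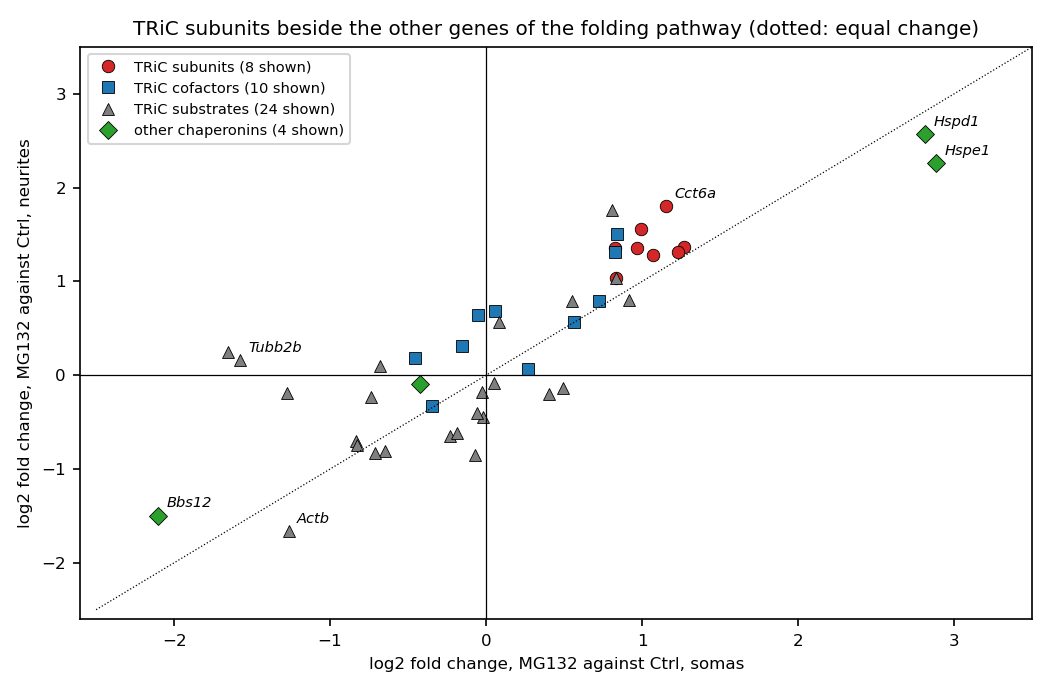
Log2 fold change of MG132 against Ctrl in somas (x axis) and neurites (y axis) for the TRiC subunits, their cofactors, their substrates and other chaperonins. Each point is 1 gene, and Bbs10 is left out because its MG132 neurite libraries held at most 1 read. The 8 subunits cluster at 0.82 to 1.27 on the x axis and 1.04 to 1.80 on the y axis, the substrates scatter around 0, and Hspd1 and Hspe1 lie furthest to the upper right.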

How the data were processed

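RNA was measured in 12 libraries, with 3 in each of 4 groups named in the sample labels. The authors trimmed single-end reads by base quality in sliding windows with Trimmomatic, then aligned them to mm10 with STAR and assigned them to genes with featureCounts, both at default settings. What they deposited is raw counts by Entrez identifier, with no normalization. Symbols were found for 25275 of 27179 identifiers (93%). Replicate libraries varied beyond counting error, and none was identical to another.

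The tests were edgeR 4.0.16 (quasi-likelihood) and, as an alternative, DESeq2 1.42.0, run in R 4.3.3. Genes were filtered with filterByExpr, libraries scaled with TMM factors, and 1 model with 4 group means was fitted to all 12 libraries. A call needed a Benjamini-Hochberg adjusted p under 0.01 over all 14185 tested genes, with no threshold on the fold. Standard errors were derived from each log2 fold change and its F statistic. The script was tested on simulated data. Intervals and depth limits cover counting error only.

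Replicate numbers are shared by the groups. Same-numbered libraries deviated together from the group means in each comparison made, with correlations of 0.165 to 0.248, so the numbers were taken as pairs for an alternative fit. They follow the dates in the library names except for 1 MG132 neurites library.

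Levels per kilobase used the union of exons in GENCODE M21. Promoter windows came from RefSeq. The members and gene lists were chosen with earlier results of these data known. The genes named are the 8 subunits, the called genes with the 3 largest absolute log2 fold changes of each list and MG132 contrast, the prefoldin genes, and the 5 genes with the most similar profile, of which 1 is not reported here. Txndc9 and the cofactors named between compartments were added after their values were seen. The alternatives were other scalings, DESeq2, other filters and thresholds, the compared groups alone, the replicate block, each library left out in turn and another transcript length. Imaging and protein data were not analysed here.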

Additional observations from a re-analysis of the deposited data

How the results depend on the processing

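Over all genes the standard error had a median of 0.36 on the log2 scale, and 0.51 for the difference of responses, which limits what could be called. For the 8 subunits, the direction of MG132 against Ctrl was the same in both compartments under every alternative run. The number called higher in somas was 1 on total counts, 0 with a log2 threshold of 1.7 and 5 to 6 when a library was left out. In neurites it was 2, 1 and 7 to 8. The replicate block changed the calls of Cct3 and Cct4 in somas, Tcp1 in Ctrl neurites against somas and Cct6a in MG132 neurites against somas, and no other call of a subunit. Reads of Tcp1, Cct6a, Cct7 and Cct8 that overlap other genes may be missing from the counts and could not be recovered. The cause of other changes was not tested.

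Between compartments in Ctrl, the number of subunits called higher was 1 with DESeq2, with the replicate block and at an adjusted p under 0.05, and 0 to 1 when a library was left out. After MG132 it was 3 with DESeq2, 2 with the replicate block, 2 at an adjusted p under 0.05, 0 on total counts, 0 on totals less mitochondrial genes and the gene with the largest share, 0 with the log2 threshold of 1.7 and 0 to 1 when a library was left out. On total counts the log2 ratio in Ctrl turned to -0.32 for Cct2, -0.37 for Cct5, -0.41 for Cct7 and -0.49 for Cct8. After MG132 it turned to -0.36 for Cct2, -0.72 for Cct3, -0.28 for Cct4, -0.36 for Cct5, -0.27 for Cct6a, -0.31 for Cct7 and -0.23 for Cct8. On totals less mitochondrial genes and the gene with the largest share it was -0.15 for Cct2, -0.17 for Cct5, -0.22 for Cct7 and -0.32 for Cct8 in Ctrl, and -0.0083 for Cct2, -0.40 for Cct3 and -0.037 for Cct5 after MG132. With at least 10 counts in every library Cct3 was -0.059 after MG132. When a library was left out, Cct3 ranged from -0.15 to 0.18 after MG132, and in Ctrl Cct4 from -0.20 to 0.14 and Cct8 from -0.074 to 0.29. The difference of responses ranged from -0.026 to 0.30 for Cct2 and from -0.051 to 0.25 for Cct5, and on total counts was -0.044 for Cct2.

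Of all genes, edgeR called 15.5% higher in somas and 14.7% in neurites at an adjusted p under 0.05. With the log2 threshold of 1.7 it called 2.11% and 2.44% higher. DESeq2 called 12.5% higher and 10.2% lower in neurites. Shares for the replicate block and total counts stand above, and those for the remaining alternatives are not given. Of the cofactors, the number called higher in somas was 2 with the replicate block, 3 at an adjusted p under 0.05 and 0 to 1 when a library was left out. In neurites it was 0 on total counts, 0 with the log2 threshold of 1.7 and 1 to 2 when a library was left out. Of the substrates in somas, the number higher was 1 with DESeq2 size factors, 0 on total counts, 1 on totals less mitochondrial genes and the gene with the largest share, 1 with at least 10 counts, 0 with the log2 threshold of 1.7 and 0 to 1 when a library was left out. The number lower was 5 with the replicate block, 5 at an adjusted p under 0.05, 0 with the log2 threshold of 1.7 and 1 to 3 when a library was left out. In neurites the number higher was 0 on total counts, 2 with DESeq2, 3 with no count filter, 3 with the replicate block, 3 at an adjusted p under 0.05, 0 with the log2 threshold of 1.7 and 1 to 2 when a library was left out. The number lower there was 2 with DESeq2 size factors, 2 on totals less mitochondrial genes and the gene with the largest share, 3 with DESeq2, 3 with at least 10 counts, 5 with the replicate block, 5 at an adjusted p under 0.05, 0 with the log2 threshold of 1.7 and 1 to 3 when a library was left out. For the difference of responses the replicate block called 1 substrate higher, Tubb2b (1.68, adjusted p = 0.0051), against 0.0987% of all genes. Of the other chaperonins, the number lower in somas was 1 with DESeq2 (11.1% of all genes) and 1 at an adjusted p under 0.05. In neurites it was 0 with at least 10 counts and 0 to 1 when a library was left out.

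The summed level of the 8 per kilobase was 234 in Ctrl somas with the longest transcript as the length. On total counts it was 295 in Ctrl somas, 603 in MG132 somas and 488 in MG132 neurites.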
